A study of Mus musculus with 2 samples.

Results

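Melanocytes are the pigment cells of the skin, and 10 genes of their lineage and of pigment synthesis were followed here in RNA of mouse keratinocytes. The genes were Mlana, Pmel (listed in the files under its older symbol Si, also known as Silv), Dct, Tyr, Tyrp1, Mitf, Slc24a5, Slc45a2, Kit and Sox10. Every gene probe carrying one of these names was taken, which gave 10 of the 27845 names in the gene column of the files, with 13 of the 41174 gene probes. Total RNA was compared on 2 two-colour Agilent arrays. Each set RNA of wild-type keratinocytes (Cy3) against RNA of keratinocytes that the labels call CHUK-LoxP mutant (Cy5). The mutant RNA is called Chuk-deleted here, a word that the sample titles and source names do not use. Chuk encodes IKKα, a kinase of the NF-kB pathway. The labels give no strain, age, Cre driver or treatment, and do not say whether the cells were cultured. No dye swap was given, so for any single probe a dye effect and a genotype effect cannot be told apart. They number the arrays as replicates without saying whether these came from separate animals or cell preparations, so p-values measure only the spread between 2 arrays, which may be technical.

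Melanocytes arise from the neural crest and pass their pigment to neighbouring keratinocytes, so cells prepared from epidermis can include some of them. SOX10 and the receptor tyrosine kinase KIT act in establishing and maintaining the lineage. MITF, the master transcription factor of the melanocyte, binds E-boxes, short DNA elements, in front of pigment genes. Its targets include the melanosomal enzymes TYR, TYRP1 and DCT, which make melanin, the fibre-forming protein PMEL and its partner MLANA, and the transporters SLC24A5 and SLC45A2, which set the ionic conditions of the melanosome.

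The promoter windows that hold the E-box letters are printed because several of the pigment genes share them. RefSeq promoter sequences (GRCm38.p6) were matched for 6 of the 10 genes, Dct, Tyr, Tyrp1, Mitf, Slc24a5 and Kit. Mlana, Pmel, Slc45a2 and Sox10 were not matched. The 250 bases before each start were searched on both strands for CATGTG, for CACGTG and for TCATGTG, the core of the M-box, which contains CATGTG. The M-box core was present in 4 of the 9 windows, and these belonged to Dct, Tyr, Tyrp1 and Slc24a5. Among 32536 distinct promoter windows of the same length, 3.27% held TCATGTG, 12.3% held CATGTG and 6.04% held CACGTG. None of the 9 windows held CACGTG, and the 3 Mitf and 2 Kit windows held none of the motifs. Capitals mark the motif, which on the reverse strand reads CACATGA. Tyr, whose signal was too low to test, was added after its values were seen.
Dct promoter, chr14:118052247-118052496, minus strand: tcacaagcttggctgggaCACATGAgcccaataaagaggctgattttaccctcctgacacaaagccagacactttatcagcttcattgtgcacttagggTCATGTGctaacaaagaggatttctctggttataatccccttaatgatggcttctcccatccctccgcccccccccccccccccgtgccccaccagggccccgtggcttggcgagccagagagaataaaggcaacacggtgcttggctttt
Tyrp1 promoter, chr4:80833963-80834212, plus strand: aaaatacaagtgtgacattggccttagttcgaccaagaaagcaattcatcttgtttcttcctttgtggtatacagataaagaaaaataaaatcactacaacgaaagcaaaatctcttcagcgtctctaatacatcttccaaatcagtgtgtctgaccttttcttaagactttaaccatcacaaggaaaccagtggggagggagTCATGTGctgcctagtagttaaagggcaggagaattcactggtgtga
Tyr promoter, chr7:87493513-87493762, minus strand: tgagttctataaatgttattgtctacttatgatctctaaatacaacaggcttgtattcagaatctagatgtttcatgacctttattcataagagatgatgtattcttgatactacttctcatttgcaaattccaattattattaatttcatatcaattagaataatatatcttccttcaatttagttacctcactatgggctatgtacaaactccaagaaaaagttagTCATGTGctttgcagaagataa
Slc24a5 promoter, chr2:125067877-125068126, plus strand: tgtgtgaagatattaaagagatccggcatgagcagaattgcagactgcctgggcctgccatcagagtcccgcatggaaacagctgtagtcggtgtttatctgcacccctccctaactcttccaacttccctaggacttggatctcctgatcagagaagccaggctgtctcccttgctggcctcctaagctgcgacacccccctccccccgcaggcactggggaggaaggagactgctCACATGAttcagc
The Tyrp1 motif began 47 bases and the Tyr motif 22 bases before the start, both on the gene's own strand. In Dct it occurred once on each strand, beginning 151 and 232 bases before the start. In Slc24a5 it lay on the reverse strand and began 13 bases before the start.

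Of the 10 genes, 9 gave a signal well above background in both channels on both arrays and were tested. Tyr did not, and was not tested. The genes were chosen with earlier results of these data known, so counts over them describe the set and do not test it. Of the 9 tested genes, 8 fell in the RNA labelled CHUK-LoxP mutant, 0 rose (0 also at an unadjusted p under 0.05) and Kit did not pass. By the same limma test 61.3% of all 13739 tested genes passed in either direction, 28.3% falling and 33% rising, with Benjamini-Hochberg adjustment over all tested probes and a threshold of 0.05. A log2 ratio here is that of Cy5 over Cy3 after loess, an intensity-dependent centring within each array, and "fell" or "rose" stands for a difference past this threshold. The median log2 ratio of the 9 genes was -0.86, with -0.82 on array 1 and -0.91 on array 2, against 0.02 over all tested genes. With the arrays centred on their medians in place of loess, 5 of the 9 genes fell and 2 rose, beside 7.19% and 74.8% of all tested genes. The median of the 9 was then -0.33, against 0.55 over all genes. With the mean ratio of spike-in controls taken off each array, all 9 fell, as did 91% of all tested genes, with a median of -1.63 against -0.74. Mlana, Pmel and Dct were at least 2-fold lower on both arrays, as were 3.2% of all tested genes, and no pigment gene was 2-fold higher on both, as were 1.5% of all tested genes. Counted by probe, 9 of the 10 tested probes fell, against 28% of the 23519 tested probes. In RNA of a bulk sample, fewer melanocytes and less RNA per melanocyte cannot be told apart.

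**Figure D1:**
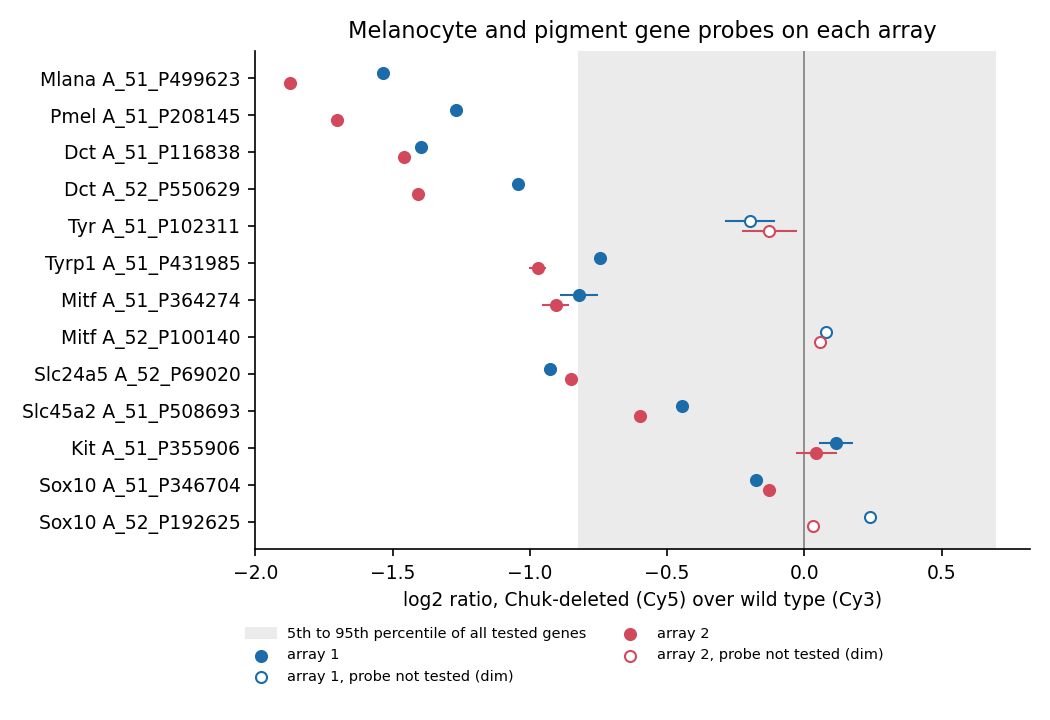
Log2 ratio of Chuk-deleted (Cy5) over wild type (Cy3) for each of the 13 probes, with a point for each array, bars for the SD over the 10 spots of a probe where it was printed 10 times, and open points for probes too dim to test. The grey band runs from the 5th to the 95th percentile of the mean log2 ratio over all tested genes (-0.82 to 0.69), and Mlana, Pmel and Dct lie farthest to its left.

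The channel labels carry every direction given here. Both probes of Chuk gave more signal in Cy5, the mutant RNA by its label, at 0.74 ± 0.02 and 0.85 ± 0.11 (mean log2 ratio ± SD, n = 2, adjusted p = 9.57e-05 and 9.69e-05, limma). This goes against the name Chuk-deleted. The place of these probes relative to the deleted part is not given in the sources used here, and a probe outside it checks nothing. The median gene spot gave 109.9 in Cy3 and 218 in Cy5 on array 1 and 95.2 and 171.5 on array 2, in scanner units. All 10 keratinocyte markers examined, Krt5, Krt14 and Trp63 among them, were well above background in both RNAs on both arrays.

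Among the tested pigment genes the structural melanosome genes Mlana and Pmel had the lowest mean log2 ratios, though the values of Pmel overlapped with those of Dct. Mlana, which encodes the melanosomal protein also called MART-1, gave raw spot signals of 7605 in Cy3 and 7381 in Cy5 on array 1 and of 4891 and 3674 on array 2, with a local background of 78 at the highest. Since Cy5 was brighter than Cy3 over the array as a whole, near-equal raw signals stand for a lower level in the Cy5 RNA. The normalised log2 ratios were -1.53 and -1.87, a mean of -1.70 ± 0.24 (SD, n = 2), or 3.26-fold lower (adjusted p = 4e-05, limma). Only 1.51% of tested genes had a lower mean log2 ratio than Mlana.

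Pmel encodes the protein whose fibrils scaffold melanin. Its raw signals were 3173 in Cy3 and 3575 in Cy5 on array 1, and 3036 and 2538 on array 2. Its log2 ratios were -1.27 and -1.70, with a mean of -1.49 ± 0.31 (n = 2) and a 2.80-fold difference (adjusted p = 8.95e-05, limma). Both arrays gave a lower Cy5 level, and the spread between them was the widest of the 9 tested genes.

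Among the enzymes, Dct and Tyrp1 fell and Tyr lay near background. Dct encodes dopachrome tautomerase, an enzyme of the eumelanin branch. Its brighter probe, A_51_P116838, gave raw signals of 18900 in Cy3 and 21380 in Cy5 on array 1 and of 13110 and 13690 on array 2. This probe had log2 ratios of -1.40 and -1.46 (mean -1.43 ± 0.05, n = 2, 2.69-fold lower, adjusted p = 2.25e-05, limma). A second probe of the gene, A_52_P550629, had -1.04 and -1.41 (mean -1.23 ± 0.26, adjusted p = 0.000108, limma), so the probes agreed in direction and overlapped in their values.

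Tyrp1, the gene of the brown locus, encodes a melanosomal protein related to tyrosinase, and its probe was printed 10 times on each array. The mean raw signals of these spots were 5214 in Cy3 and 8685 in Cy5 on array 1 and 1828 and 2494 on array 2. The log2 ratio was -0.75 on array 1, where the 10 spots had an SD of 0.02, and -0.97 on array 2, where their SD was 0.03. The spots of array 1 ranged from -0.78 to -0.72 and those of array 2 from -1.02 to -0.94, so the arrays did not overlap. The mean was -0.86 ± 0.16 (n = 2 arrays), 1.81-fold lower (adjusted p = 0.000146, limma). With median centring in place of loess it was -0.20 and did not pass (adjusted p = 0.0928). Spots on an array share its RNA and were averaged, not counted as replicates.

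Tyr encodes tyrosinase, the rate-limiting enzyme of melanin synthesis. Its 10 spots averaged 82.42 in Cy3 and 111.5 in Cy5 on array 1, and 72.72 and 97.31 on array 2. On array 1 the software placed 2 of the Cy3 spots and 1 of the Cy5 spots well above background, and on array 2 it placed 1 in each channel there. Of 153 negative control spots, 1 reached the Tyr mean in Cy3 and 5 in Cy5 on array 1, while 10 and 17 did so on array 2. The probe was thus close to the floor of the measurement in both RNAs, and its log2 ratios of -0.20 and -0.13 give no usable difference.

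**Figure D2:**
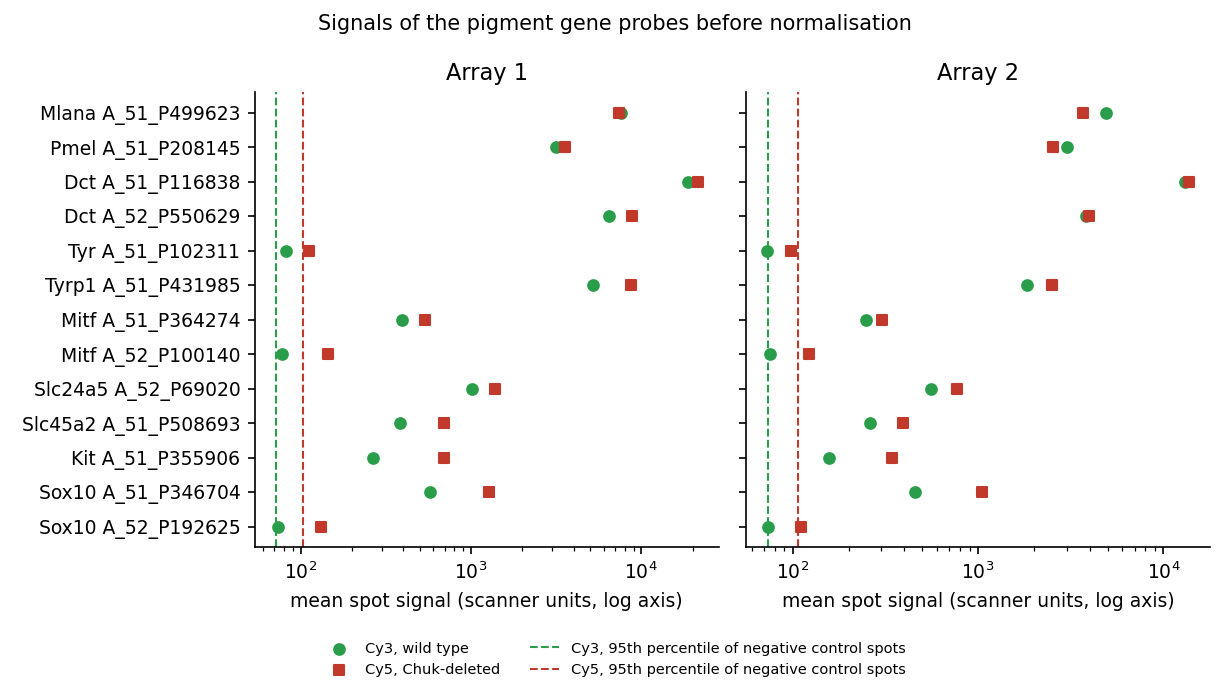
Mean spot signal of each of the 13 probes on a log axis, before normalisation, on array 1 (left) and array 2 (right), with circles for Cy3 (wild type) and squares for Cy5 (Chuk-deleted). Dashed lines mark the 95th percentile of 153 negative control spots in each channel, and the Tyr probe and the second probes of Mitf and Sox10 lie near them.

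Both transporter genes fell. Slc24a5 encodes an exchanger of potassium, sodium and calcium whose loss lightens coat and skin. It had raw signals of 1009 in Cy3 and 1381 in Cy5 on array 1, and of 558.3 and 765.2 on array 2. Its log2 ratios were -0.93 and -0.85 (mean -0.89 ± 0.05, n = 2, 1.85-fold lower, adjusted p = 6.31e-05, limma). Slc45a2, mutated in a form of albinism, gave 385.4 in Cy3 and 691.3 in Cy5 on array 1, and 261.3 and 392.5 on array 2. Its log2 ratios were -0.45 and -0.60, with a mean of -0.52 ± 0.11 (n = 2), 1.44-fold lower (adjusted p = 0.000564, limma), and with median centring it was -0.07 and did not pass (adjusted p = 0.562).

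Of the lineage regulators, Mitf fell, Sox10 lay at the threshold and Kit did not pass. The brighter Mitf probe, A_51_P364274, was printed 10 times and averaged 392.4 in Cy3 and 536.8 in Cy5 on array 1, and 248.5 and 302.9 on array 2. Its log2 ratio was -0.82 on array 1 (SD of 10 spots 0.07) and -0.91 on array 2 (SD 0.05). The mean was -0.86 ± 0.06 (n = 2 arrays), 1.82-fold lower (adjusted p = 6.98e-05, limma). The spots of the arrays overlapped, from -0.96 to -0.73 on array 1 and from -0.99 to -0.83 on array 2. A second Mitf probe, A_52_P100140, was not well above background in Cy3 on either array, was so in Cy5 on 1 array, and was not tested.

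Sox10 encodes the neural crest transcription factor that acts upstream of Mitf. Its brighter probe gave 573.1 in Cy3 and 1284 in Cy5 on array 1, and 456.5 and 1047 on array 2. The log2 ratios were -0.18 and -0.13 (mean -0.15 ± 0.04, n = 2), a 1.11-fold difference with an adjusted p of 0.0424 by limma. The call was lost with the software's own ratios (adjusted p = 0.0622) and when dim probes were kept in the adjustment (adjusted p = 0.0679). With the arrays centred on their medians in place of loess the sign turned, to 0.39 (adjusted p = 0.000494), and the median of all genes moved from 0.02 to 0.55. The second Sox10 probe was too dim to test.

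Kit encodes the receptor for stem cell factor, on which melanoblasts depend. Its probe was printed 10 times and averaged 267.6 in Cy3 and 694.7 in Cy5 on array 1, and 156.2 and 345 on array 2. The log2 ratio was 0.11 on array 1, with spots from 0.02 to 0.23, and 0.04 on array 2, with spots from -0.09 to 0.17. The mean was 0.08 ± 0.05 (n = 2, adjusted p = 0.237, limma; 0.47 with median centring and -0.68 with the spike-in mean taken off, both past the threshold), and 57.8% of tested genes had a lower mean.

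By their values on the arrays the 9 genes fell into an order of differences, not of levels. Kit, Sox10 and Slc45a2 followed one another without overlap. Tyrp1, Mitf and Slc24a5 overlapped, and their order turned round between the arrays. Dct lay below these and did not overlap with Mlana, while Pmel overlapped with both. The differences between genes were not tested.

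The 5 tested genes whose pair of log2 ratios lay nearest to the medians of the 9 genes were F2rl1, Paqr5, Rnh1, Ppfia1 and Tgfb2, at Euclidean distances of 0.01 to 0.02 over 2 arrays. Their mean log2 ratios ran from -0.87 to -0.85. With 2 arrays this likeness says no more than that the ratios were of similar size.

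Levels also differed between the arrays within a channel, and this was greatest for Tyrp1. After scaling of both arrays to the same overall distribution, Tyrp1 was lower on array 2 than on array 1 by a log2 difference of -0.90 in the wild-type channel and of -1.12 in the Chuk-deleted channel. Only 1.19% and 1.04% of tested genes had a lower difference in these channels. Pmel was higher on array 2 by 0.58 in the wild-type channel and by 0.15 in the other. For Mlana the differences were -0.01 and -0.35, for Dct 0.13 and 0.06, and for Kit -0.38 and -0.45. Except for Tyrp1, the 9 tested genes stayed within the 5th to 95th percentile of all tested genes, which ran from -0.60 to 0.61 in Cy3 and from -0.69 to 0.69 in Cy5. What differed between the arrays is not given in the sources used here.

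**Figure D3:**
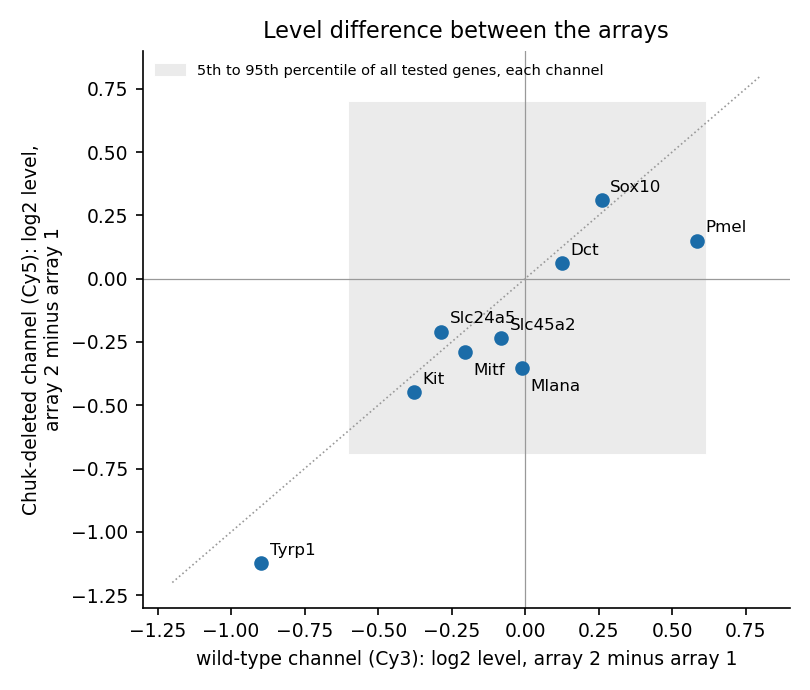
Difference in normalised log2 level between array 2 and array 1, in the wild-type channel (horizontal) and in the Chuk-deleted channel (vertical), for the 9 tested genes. The grey box spans the 5th to 95th percentile of all tested genes in each channel, the dotted line marks equal differences, and Tyrp1 lies outside the box at -0.90 and -1.12.

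Other genes of the pigment pathway were followed in 5 lists of 63 genes, of which 55 were tested. Of these, 27 fell and 13 rose, beside 28.3% and 33% of all tested genes, with a median log2 ratio of -0.13. Relative to the loess centring this split is not fixed. With median centring 12 fell and 31 rose, beside 7.19% and 74.8% of all tested genes. The spike-in controls are RNAs added to both samples. With their mean ratio taken off each array 53 fell and 0 rose, beside 91% and 1.98% of all tested genes. The counts of each list below are to be read beside these shares. The median of all genes, to be read beside each list median below, was 0.02 with loess, 0.55 with median centring and -0.74 with the spike-in mean taken off. The lists were not tested as sets.

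Of 10 tested further melanosome and MITF target genes, 7 fell and 2 rose (median -0.43). Rab32 and Rab38 encode small GTPases that carry melanosomal enzymes to the melanosome. Rab32 fell on both arrays, with log2 ratios of -1.85 and -2.13 (mean -1.99 ± 0.20, n = 2, adjusted p = 2.25e-05, limma), and Rab38 fell too, with -1.13 and -1.48 (mean -1.31 ± 0.24). Atp7a, the copper pump that supplies tyrosinase, had -1.18 and -1.53 on its brighter probe (mean -1.35 ± 0.25, and -0.38 on its other probe, with both probes past the threshold). Oca2, a melanosomal membrane protein gene, had -0.97 and -1.06 (mean -1.02 ± 0.07), and its Cy5 signal cleared the background on 1 array. The list's 2 genes that rose, named after their values were seen, were Tpcn2 (0.24) and Bcl2 (0.57). Of the 3 tested Bcl2 probes 2 rose, and the 3 ran from -0.09 to 0.83. Gpr143 and Trpm1 were too dim to test. The median lay 0.45 below that of all genes under loess, and with median centring the difference was -0.71. Taking off the spike-in mean moves every gene by the same amount, so it could not change this difference.

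Of 6 melanocyte receptor genes, 4 fell and 1 rose (median -0.32, a difference of -0.34 from all genes, and of -0.60 with median centring). Erbb3, the neuregulin co-receptor that keratinocytes express as well, had log2 ratios of -1.30 and -1.79 (mean -1.55 ± 0.34), and all 3 of its probes fell, the smallest fall being -0.27. Ngfr (-0.55 ± 0.03) and the endothelin receptor gene Ednrb (-0.49 ± 0.04) fell, and Fgfr1 rose (0.42 ± 0.03). The melanocortin receptor gene Mc1r lay at -0.02 on array 1 and 0.03 on array 2 (adjusted p = 0.967, limma). Met, the receptor gene for hepatocyte growth factor, counted among the 4 (-0.15, adjusted p = 0.0471, limma), but 1 of its 3 probes rose, at 0.32.

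Among 10 tested transcription factor genes linked to the lineage, 6 fell and 3 rose (median -0.22, a difference of -0.24 from all genes, and of -0.37 with median centring). Sox9, also a factor of hair follicle cells, had -1.27 on each array (mean -1.27 ± 0.00, adjusted p = 2.49e-05, limma). Its 3 probes ranged from -1.27 to -0.16 and 2 of them fell. Usf1, an E-box factor, fell by 0.60 ± 0.08, and the MITF relatives Tfe3 (-0.30 ± 0.03) and Tfeb (-0.39 ± 0.01, Cy5 above background on 1 array), named after their values were seen, fell as well. Of the 2 tested Tfe3 probes only 1 fell, and the other lay at -0.04. Snai2, which acts in melanoblast migration and is also expressed in keratinocytes, rose by 0.56 ± 0.04, and Lef1, a WNT effector, by 0.50 ± 0.00. Pax3, an activator of Mitf, had -0.12 and -0.17 (adjusted p = 0.0497, limma) and its Cy3 signal cleared the background on 1 array. With median centring this list had 2 fallen and 4 risen members.

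Many genes of melanosome biogenesis and transport serve lysosome-related organelles in other cells too. Of 21 tested, 7 fell, 2 rose and 12 did not pass, with a median of -0.06, and the 7 stand beside the 28.3% of all genes that fell. With median centring 1 fell and 17 rose, beside 7.19% and 74.8% of all genes. With the spike-in mean taken off 21 fell and 0 rose (limma), beside 91% and 1.98% of all genes. The list's median differed from that of all genes by -0.08 with loess and by -0.06 with median centring. Mlph, which links melanosomes to the motor myosin Va, had -0.76 and -0.83 (mean -0.79 ± 0.05, adjusted p = 8.46e-05, limma). Its partner genes, named after their values were seen, did not pass, with Rab27a at -0.03 and Myo5a at 0.05. Lyst fell by 0.46 ± 0.05 and the BLOC-1 subunit gene Bloc1s2 by 0.30 ± 0.03. Vps33a had its brighter probe at 0.33 ± 0.02 and another called in the opposite direction at -0.26.

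Of 8 tested genes for keratinocyte factors that act on melanocytes, 5 rose and 3 fell (median 0.22). Kitl, the ligand of KIT, had 0.39 and 0.48 (mean 0.43 ± 0.06, 1.35-fold higher, adjusted p = 0.00078, limma). Foxn1, a transcription factor of differentiating hair and epidermal cells, rose by 0.42 ± 0.03, while endothelin-1, Edn1, fell by 0.39 ± 0.04. Csf2, the gene for GM-CSF, had log2 ratios of -2.67 and -3.87 (mean -3.27 ± 0.85). Edn3 and Hgf were too dim to test. The direction of this list's median rests on the loess centring: it lay 0.20 above that of all genes there and below it, by a difference of -0.08, with median centring.

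**Figure D4:**
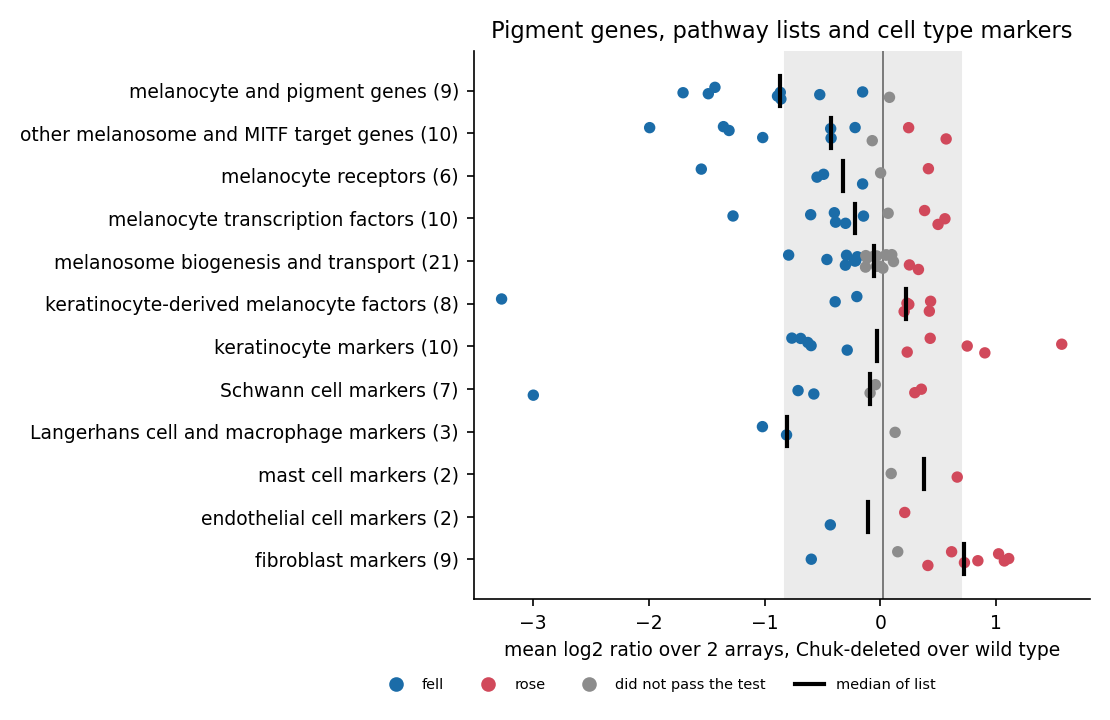
Mean log2 ratio over 2 arrays of each tested gene in the pigment gene set, the 5 pathway lists and the 6 marker lists, with the number tested in parentheses, blue for genes that fell, red for genes that rose, grey for neither, and a black bar at the list's median. The grey band is the 5th to 95th percentile of all tested genes. The pigment gene set has a median of -0.86 and the fibroblast markers one of 0.73. When the spike-in mean is taken off these are -1.63 and -0.04, against -0.74 for all tested genes.

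Markers of other cell types moved beside the pigment genes on the same arrays. All 9 fibroblast markers were tested: 7 rose and 1 fell (median 0.73), led by Thy1 (1.11 ± 0.21) and Pdgfrb (1.07 ± 0.14). With the spike-in mean taken off, 3 rose and 3 fell, beside 1.98% and 91% of all genes. The median of these markers was then -0.04, against -0.74 for all genes. Their summed normalised level was 94900 to 116000 in the wild-type channel and 174000 to 190000 in the mutant channel. For the 9 pigment genes the sum was 50400 to 51300 and 19000 to 21500. Each sum given here adds unlogged levels, so the brightest genes weigh most in it. Among the 9 pigment genes the brightest was Dct, with a mean log2 level of 14.71 in wild type and 13.29 in the mutant. For the fibroblast markers it was Vim, at 15.71 in wild type and 16.44 in the mutant. The part of other cell types in the pigment gene result was not tested. Keratinocyte markers split evenly, with 5 of 10 risen and 5 fallen and a median of -0.03. With median centring 8 rose and 1 fell, beside 74.8% and 7.19% of all genes (median 0.84, against 0.55 for all genes). Their sum was 734000 to 757000 in wild type and 942000 to 962000 in the mutant, though 5 of the 10 markers fell with loess. Itgb4, 1 of the 5 that rose, had a mean log2 level of 16.19 in wild type and 17.76 in the mutant. Schwann cells share a neural crest origin and Sox10 with melanocytes. Of their 7 tested markers 3 fell and 2 rose (median -0.09, or 0.17 with median centring, against 0.55 for all genes), and their sum was 21700 to 26100 in wild type and 13000 to 15500 in the mutant. Egr2, of the same list and also an immediate early gene in many cells, had -2.74 and -3.26 (mean -3.00 ± 0.37).

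Mast cells also carry KIT, and 7 of their 9 markers were too dim to test, the protease genes Cpa3, Tpsb2 and Mcpt4 among them. Of the 2 tested, Cma1 rose by 0.66 ± 0.00, and its Cy3 signal cleared the background on 1 array. Of Langerhans cell and macrophage markers, 3 of 8 were tested and 2 fell, Lyz2 by 1.02 ± 0.08 and Csf1r by 0.81 ± 0.02 (Cy5 above background on 1 array). Their sum was 3720 to 3880 in wild type and 2540 to 2780 in the mutant, and the Langerhans cell gene Cd207 was too dim to test. Of endothelial markers 2 of 6 were tested, with Vwf at -0.43 ± 0.04 (Cy5 above background on 1 array) and Kdr at 0.21 ± 0.02, while Pecam1 and Cdh5 were too dim. Their sum was 1130 to 1150 in wild type and 1250 to 1280 in the mutant.

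**Figure D5:**
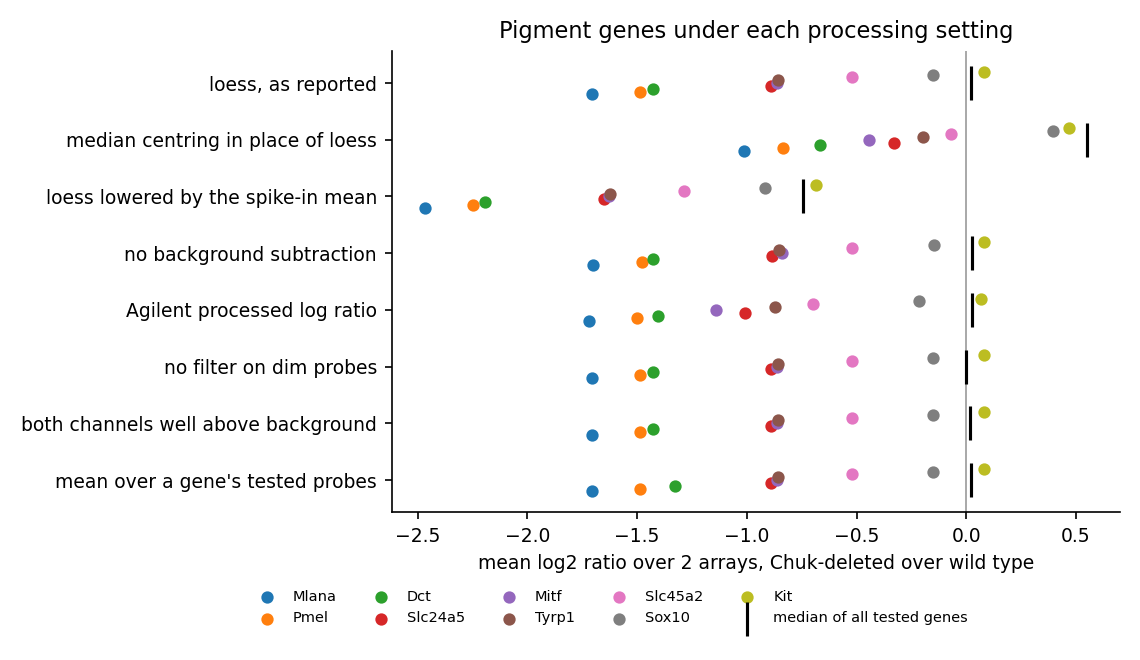
Mean log2 ratio of each of the 9 tested genes under the loess setting and each alternative, with a black bar at the median of all tested genes. Mlana, Pmel and Dct stay lowest in the settings shown. The spike-in setting moves all genes alike and cannot change this order, and the filters on dim probes left the values of these genes unchanged. Sox10 moves from -0.15 to 0.39 with median centring, where the bar moves from 0.02 to 0.55.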

How the data were processed

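Scans were read with Feature Extraction (Agilent, 9.1.3.1), as the headers state. Per the file headers, the mean spot intensity and median local background of each channel were deposited without correction or normalisation. The log10 ratio of processed signals in the same files was detrended and dye normalised, per the file headers, and the deposited log10 value table equalled it to within 0.005. Flags for background, saturation and outlying spots are the software's score of 0 or 1, as deposited.

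With limma 3.58.1 in R 4.3.3, background was corrected by normexp (offset 50), log2 ratios were centred by loess with control and outlier spots at weight 0, and outlier spots (51 and 18) were dropped. Spots of a probe were averaged, and a channel counted as above background where at least a share of 0.5 of the spots did. Probes that cleared the background on both arrays in Cy3, in Cy5 or in both (23519) were fitted with lmFit and eBayes (1 residual and 5.20 prior degrees of freedom). A gene was its brightest tested probe. Names were updated with RefSeq (GRCm38.p6), 16129 probes through an accession and 4721 through a symbol or synonym. Both arrays came from 1 scan. With 2 arrays, their number limits the precision. On simulated ratios for 23519 probes, 44 of 50 changes of 0.5 (log2) were recovered, with 14 false calls. The simulated spread was drawn from the fitted limma prior, and only 200 probes were changed. No dye effect or centring shift was simulated, so the 14 false calls do not give the error rate in the data.

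The genes and lists were chosen with earlier results of these data known. By rule all 10 genes were named, and of each list the 4 called genes that changed most. Other list genes named, and Tyr's promoter, were chosen after their values were seen. Some marker genes are not reported here by name.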

Additional observations from a re-analysis of the deposited data

How the results depend on the processing

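The count of 8 pigment genes that fell became 5, with 2 that rose, when arrays were centred on their median in place of loess, which moved the median of all genes by 0.53 and single genes by unequal amounts. There Slc45a2 (-0.07, adjusted p = 0.562, limma) and Tyrp1 (-0.20, adjusted p = 0.0928) lost their calls, Kit rose (0.47) and Sox10 reversed to 0.39. Lowering by the spike-in mean reversed Kit to -0.68. The median of -0.86 was -0.33 with median centring, -1.63 with the spike-in mean taken off and -1.01 with the software's processed ratios. Relative to the median of all genes it was -0.88, -0.89 and -1.03, against -0.89 as reported. The spike-in setting subtracts a single value per array from all genes, so this difference could not change there. Of the other pathway genes, 12 fell and 31 rose with median centring, and 53 fell and 0 rose under the spike-in setting (limma, also at an unadjusted p under 0.05). The cause was not tested. All genes split into 74.8% risen and 7.19% fallen with median centring and 1.98% and 91% under the spike-in setting. Without array 1 the median was -0.91 and without array 2 it was -0.82, and each tested gene kept its sign. No test, and so no count, was possible on 1 array. No background subtraction, both filters on dim probes and averaging probes left the counts within 1.5 times and the median between -0.86 and -0.85. Each ratio already pairs both RNAs on 1 array, so no fit without this pairing was made. Tyr and the second probes of Mitf and Sox10 were limited by signal near background.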
